A study of Cicer arietinum with 8 samples.

Results

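Strongly expressed loci without a gene name were examined in the roots of salt-sensitive and salt-tolerant chickpea. The deposited table lists 30692 assembled loci, of which 2816 carry no gene name. Of these, 52 were left out because they were listed at 0 in both groups of a genotype, and the 150 with the highest FPKM in any group were taken from the other 2764. FPKM is the number of fragments assigned to a locus relative to transcript length and sequencing depth. The members were thus chosen by these FPKM values in all 4 groups, so the levels and ratios given here are descriptions of the chosen loci and no test was run on them. The lowest value by which a locus entered was 129.9. As this rule fixes, the members' highest FPKM, with a median of 258, exceeded that of the other loci without a gene name, with a median of 9.28. The median over all named loci was 6.31, and 1839 named loci reached the members' lower limit. These are called the named loci at the members' level below. Their levels were not matched further to those of the members, and loci at 0 were not left out.

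Root RNA was sequenced from 4 groups, namely JG62 (salinity tolerant, ST) under salinity stress, JG62 control, ICCV2 (salinity sensitive, SS) under salinity stress and ICCV2 control. Each group had 2 libraries, 8 in all, made from total RNA and read as 49 bp single-end reads. Seedlings 12 days old received 80 mM NaCl on alternate days over 6 days or, as controls, water without salt, and by the sample labels roots were harvested at 18 days. Each genotype is represented by a single line, and the sources used here do not state how many plants entered a library.

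A locus without a gene name in an assembly of this kind is in general a place where reads were joined into a transcript that was not matched to an annotated gene model. Transcripts of this kind in plant roots are known to include protein-coding genes that the annotation missed, long non-coding RNAs, transcribed transposable elements and precursors of structural or small RNAs. Salt in the root zone limits water uptake and loads cells with sodium, and roots are known to answer through ion transporters, compatible solutes, hormone signals and changes of the cell wall. The table gives no coordinates, sequence or function for these loci, so none of these kinds is assigned to a member and the members are ordered by how their levels behaved.

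The table holds 1 FPKM value per group, which stands for both libraries of that group. No spread between libraries can be computed, so no SD, n or p-value accompanies any value, and no difference given here has a replicate check. Library depth is unknown from these values, because among 469 to 538 loci with low values no ratio of 2 columns was shared by more than 3 loci and whole reads could not be recovered. In each of the 4 comparisons the median log2 ratio lay between -0.02 and 0.04 when taken across the 18918 loci that had FPKM 1 or more throughout. The tissue label could not be checked against root markers, since the gene names in the table are numbers without a function. An exact 0 is described as listed at 0, since the values do not show whether such a locus was unexpressed or not quantified.

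The 150 members held 5.58% of the summed FPKM in ST salinity stress, 5.28% in ST control, 4.87% in SS salinity stress and 4.90% in SS control. A few loci carried much of this. The 10 highest members made up 49.2% of the members' sum in ST salinity stress, 45.6% in ST control, 38.2% in SS salinity stress and 38.2% in SS control. Beyond these 10, the members' summed FPKM was 39289 in ST salinity stress, 37241 in ST control, 40380 in SS salinity stress and 39462 in SS control, so the groups lay closer together without them. The 10 were picked by their highest value in any group, so their removal takes most from groups in which they peak. In bulk roots, a change in the number of cells that express a locus and a change in its RNA per cell cannot be told apart. Highest FPKM reached at least 1000 in 15 members and at least 500 in 38, and it stayed under 200 in 56. In the whole table, 2 members stood among the 10 highest loci, 10 among the 100 highest and 73 among the 1000 highest. Loci without a gene name were 9.18% of the table and 7.63% of the 1991 loci that reached the members' lower limit. The highest of the 4 values fell in ST salinity stress for 37 members, in ST control for 36, in SS salinity stress for 50 and in SS control for 27. These counts rest on the same maxima that chose the members. No such count was made over other loci, so it is not read as a trait of the members.

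XLOC_025097 was the strongest member, with FPKM 8637 in ST salinity stress, 10004 in ST control, 8377 in SS salinity stress and 6782 in SS control. Its highest value was 1.47-fold its lowest. XLOC_019945 had 8826 in ST salinity stress, 4075 in ST control, 3369 in SS salinity stress and 4523 in SS control, so that 1 group stood well above the other 3. XLOC_027876 had 6750 in ST salinity stress, 6613 in ST control, 3743 in SS salinity stress and 2925 in SS control, and here both ST values were above both SS values. XLOC_020062 combined a salt and a genotype difference, with 2691 in ST salinity stress, 1436 in ST control, 1055 in SS salinity stress and 390 in SS control. XLOC_000008 had 1582 in ST salinity stress, 169 in ST control and 1295 in SS control, and it was listed at 0 in SS salinity stress. It was the single member at 0 in any group.

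Among the rest of the 10 highest members, 3 were nearly level. XLOC_015926 had 2676 in ST salinity stress, 2742 in ST control, 2961 in SS salinity stress and 2766 in SS control. XLOC_000546 had 1888 in ST salinity stress, 1795 in ST control, 1999.8 in SS salinity stress and 1786 in SS control. XLOC_020130 had 1488 in ST salinity stress, 1319 in ST control, 1529 in SS salinity stress and 1355 in SS control. The highest and lowest values of each of these 3 loci were no more than 1.16-fold apart. XLOC_025907 had 1898 in ST salinity stress, 1889 in ST control, 1013 in SS salinity stress and 1464 in SS control. XLOC_008908 had 1541 in ST salinity stress, 1178 in ST control, 879 in SS salinity stress and 1133 in SS control. In both, SS salinity stress was the lowest group, and the highest value was 1.87-fold the lowest in XLOC_025907 and 1.75-fold in XLOC_008908.

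**Figure D1:**
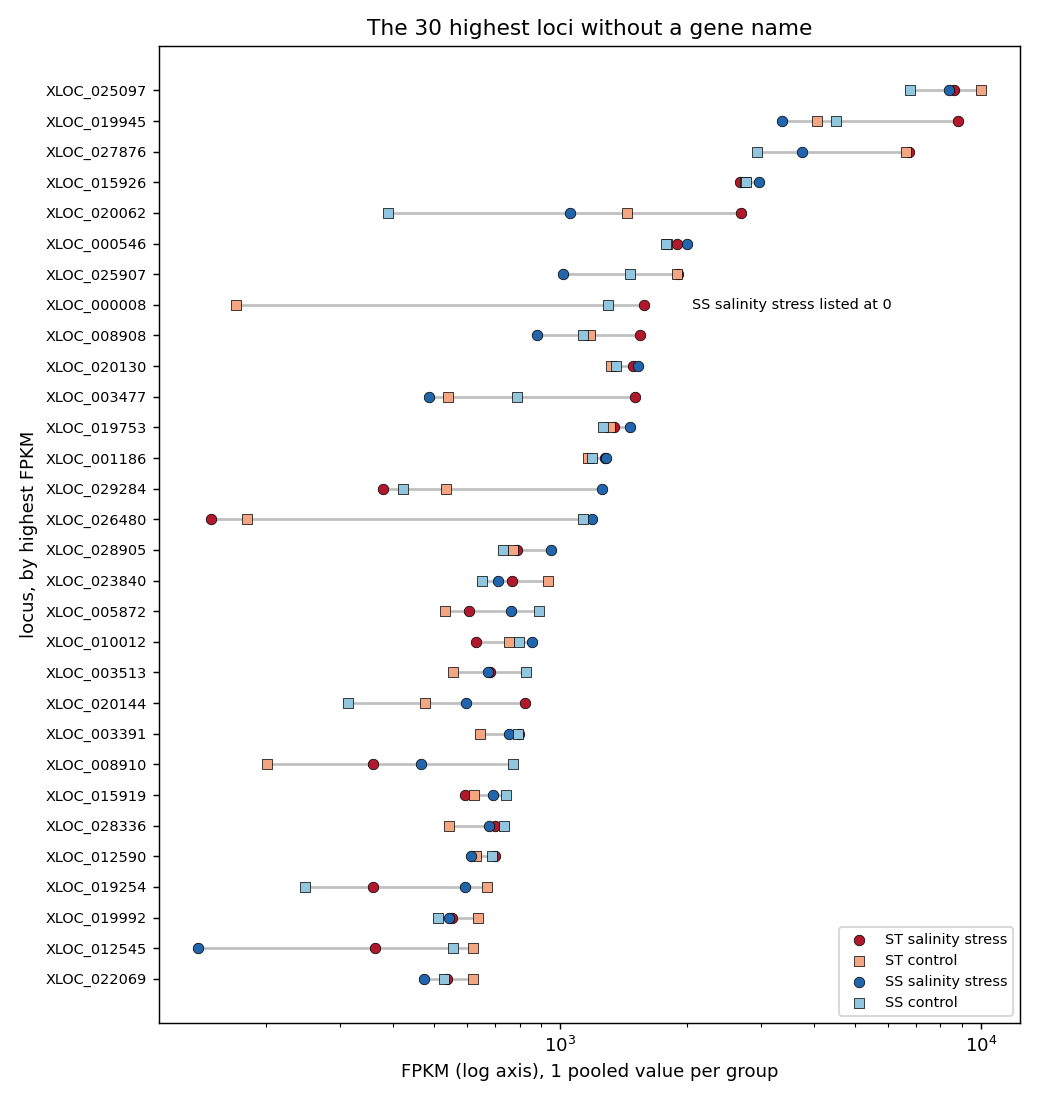
FPKM on a log axis (1 pooled value per group, no error bars) of the 30 members with the highest FPKM, with circles for salinity stress and squares for control, in dark red and orange for ST and in dark and light blue for SS; grey lines join the lowest and highest values above 0. Many loci have tightly grouped values, while XLOC_020062, XLOC_026480 and XLOC_012545 spread widely and XLOC_000008 is listed at 0 in SS salinity stress.

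The members ranged from level to widely spread. In 80 of 150 (53.3%) the highest and the lowest of the 4 groups differed by less than 1.5-fold, and in 34 by less than 1.2-fold. A difference of at least 2-fold between the highest and lowest group was found in 45 members (30%), against 10.5% of the named loci that reached the same limit, 37.0% of the other loci without a gene name and 17.0% of all loci. It was at least 4-fold in 7 members. The median ratio of highest to lowest group was 1.47 among members, against 1.26 over the 1839 named loci that reached the same limit, 1.62 over the other loci without a gene name and 1.33 over all loci that reached FPKM 1 anywhere. The share of loci within 1.5-fold was 74.2% for the named loci at that level, 40.5% for the other loci without a gene name and 65.2% for all loci. The steadiest members, named after their values were seen, were XLOC_009286 with FPKM between 187 and 190.3 and XLOC_024897 with FPKM between 157 and 160.5. In 116 members the lowest group still had FPKM of at least 100, and in 7 it was under 50.

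For each comparison a locus was counted as changed when its FPKM ratio was at least 1.5 either way and the larger FPKM was 1 or more. All 150 members were open to this count in each comparison. The count over members is a description, since a locus that was high in a single group could become a member through that group.

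**Figure D2:**
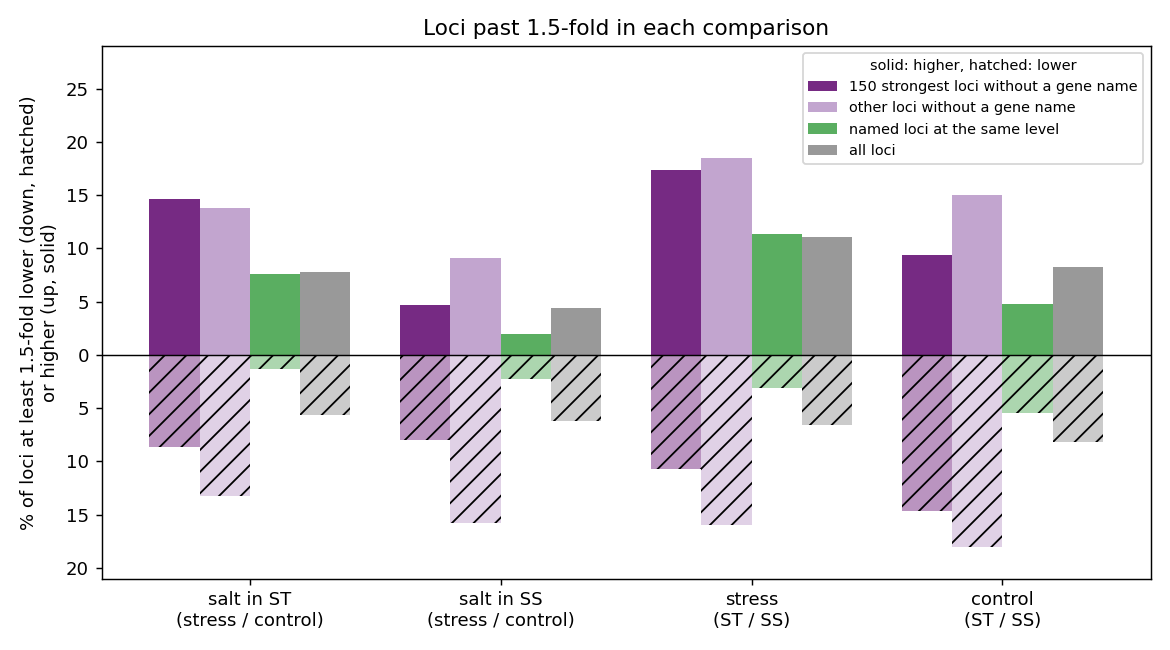
Share of loci (%) at least 1.5-fold higher (solid, upward) or lower (hatched, downward) in each comparison, for the 150 members, the other loci without a gene name, the named loci that reached the same limit and all loci. Members stand at 23.3%, 12.7%, 28.0% and 24.0% in total from left to right.

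The first comparison set ST roots under salinity stress against ST control. Under salinity stress 22 members were at least 1.5-fold higher and 13 at least 1.5-fold lower than in ST control, which is 23.3% of the members. Over all loci open to the count 13.4% were called, 7.79% as higher and 5.63% as lower. The share was 8.97% among the named loci at the members' level, where 140 were higher and 25 lower, and 27.1% among the other loci without a gene name, where 356 were higher and 342 lower. The median log2 ratio was 0.03 over the members, with quartiles of -0.21 and 0.33, against 0.04 over all loci. At a 2-fold threshold 17 members (11.3%) passed, against 5.07% of all loci, 1.74% of the named loci at the members' level and 12.5% of the other loci without a gene name.

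The largest positive difference by log2(FPKM + 1) was in XLOC_000008, with FPKM 1582 in ST salinity stress against 169 in ST control, a 9.34-fold difference. XLOC_023456 was 9.38-fold higher, with 57.2 in ST salinity stress against 6.10 in ST control. Its SS values of 160.1 in salinity stress and 185 in control were both far above the ST values, and 6.10 was the lowest value above 0 of any member. XLOC_028411 had 462 in ST salinity stress against 119 in ST control (3.87-fold). XLOC_027509 had 438 against 127 (3.45-fold), and XLOC_015879 had 242 against 70.6 (3.42-fold). In XLOC_027509 and XLOC_015879 both SS values lay close to ST control, between 151 and 160.5 for the first and between 82.2 and 91.97 for the second. XLOC_028411 differed from them, since its SS values of 353 in salinity stress and 409 in control were near its ST salinity stress value.

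Among the other higher members, XLOC_019945 added most FPKM, with 8826 in ST salinity stress against 4075 in ST control (2.17-fold). XLOC_001208, named after its values were seen, had 275 in ST salinity stress against 102 in ST control, and 133 in SS salinity stress against 147 in SS control. Over all 22 higher members the log2 ratio lay between 0.60 and 3.23.

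The largest negative differences were in 5 loci of moderate level. XLOC_005880 had FPKM 60.1 in ST salinity stress against 185 in ST control (3.08-fold lower), XLOC_015958 had 56.2 against 146 (2.60-fold) and XLOC_003446 had 60.8 against 141 (2.32-fold). XLOC_012521 had 40.2 in ST salinity stress against 88.9 in ST control, and XLOC_020134 had 80.5 against 159.7. In the SS genotype XLOC_005880, XLOC_015958, XLOC_012521 and XLOC_020134 were each between 1.32 and 1.37-fold higher under salinity stress, which is under the threshold. XLOC_003446 was lower there, with 81.5 in SS salinity stress against 113 in SS control. The 13 lower members had log2 ratios between -1.62 and -0.63.

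The same comparison was made in the SS genotype. Here 7 members were at least 1.5-fold higher and 12 at least 1.5-fold lower under salinity stress, 12.7% of the members. Over all loci 10.7% were called, 4.44% as higher and 6.23% as lower. The share was 4.19% among the named loci at the members' level and 24.9% among the other loci without a gene name. The median log2 ratio over members was 0.03, against -0.03 over all loci. At a 2-fold threshold 9 members (6%) passed, against 4.35% of all loci, 0.707% of the named loci at the members' level and 12.3% of the other loci without a gene name.

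XLOC_029284 had the largest positive difference, with FPKM 1254 in SS salinity stress against 422 in SS control (2.97-fold). In ST it had 379 in salinity stress against 535 in control, so SS salinity stress stood apart from the other 3 groups. XLOC_020062 had 1055 in SS salinity stress against 390 in SS control (2.70-fold). XLOC_019254 had 592 against 248 (2.39-fold), XLOC_020144 had 595 against 313 (1.90-fold) and XLOC_017387 had 222 against 122 (1.81-fold). The remaining higher members were XLOC_030386, with 354 in SS salinity stress against 228 in SS control, and XLOC_003370, with 145 against 96.3.

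On the lower side XLOC_000008 was listed at 0 in SS salinity stress against FPKM 1295 in SS control, and no fold is given. XLOC_012545 had 138 in SS salinity stress against 557 in SS control (4.04-fold lower). This was the lowest of its 4 values by a wide margin. XLOC_020092 had 149 against 440 (2.94-fold), XLOC_012774 had 70.0 against 162 (2.32-fold) and XLOC_017306 had 76.8 against 163 (2.12-fold). XLOC_005877 had 135 in SS salinity stress against 273 in SS control. The other 6 lower members, XLOC_008910, XLOC_012487, XLOC_003477, XLOC_020045, XLOC_002752 and XLOC_027483, had log2 ratios between -0.73 and -0.62.

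The ST and the SS salt ratio share no column, so they can be set side by side. In 106 members (70.7%) neither ratio passed 1.5-fold, against 82.0% of all loci open to both counts, and 10 members passed it in both genotypes (6.67%, against 4.04% of all loci and 11.1% of the other loci without a gene name). The 10 split into 2 that were higher in both (1.25% of all loci), 1 that was lower in both (1.29%) and 7 of opposite direction. In ST and not in SS, 25 members passed (16.7%, against 8.21% of all loci and 14.8% of the other loci without a gene name). Of these, 15 were higher (10% of the members, against 4.93% of all loci and 7.51% of the other loci without a gene name). The remaining 10 were lower (6.67%, against 3.28% and 7.31%, respectively). In SS and not in ST, 9 members passed (6%, against 5.76% of all loci and 12.7% of the other loci without a gene name), 3 of them higher (2.35% of all loci) and 6 lower (3.41%). Opposite directions made up 4.67% of the members, against 4.76% of the other loci without a gene name, 1.51% of all loci and 0.816% of the named loci at the members' level, so the members' share was close to that of the other loci without a gene name. The difference between the genotypes was not tested, because it needs the values of single libraries.

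XLOC_020062 and XLOC_020144 were the members higher in both. XLOC_020144 had FPKM 824 in ST salinity stress against 476 in ST control, and 595 in SS salinity stress against 313 in SS control. The folds of XLOC_020062 were 1.87 in ST and 2.70 in SS, and those of XLOC_020144 were 1.73 in ST and 1.90 in SS. XLOC_012545 was lower in both, with 363 in ST salinity stress against 621 in ST control and 138 in SS salinity stress against 557 in SS control.

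Of the 7 members of opposite direction, 5 were higher in ST and lower in SS, a pattern of 0.998% of all loci. XLOC_020092 had FPKM 552 in ST salinity stress against 174 in ST control, and 149 in SS salinity stress against 440 in SS control, so the higher group of each genotype was the lower one of the other. XLOC_003477 had 1503 in ST salinity stress against 542 in ST control, and 486 in SS salinity stress against 788 in SS control. XLOC_017306 had 125 in ST salinity stress against 54.3 in ST control, and 76.8 in SS salinity stress against 163 in SS control. In each of these 3 loci the salt ratio of ST exceeded that of SS by more than 4-fold. XLOC_008910 had 358 in ST salinity stress against 200.3 in ST control, and 467 in SS salinity stress against 772 in SS control. XLOC_000008 completes this set with the values given above.

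The reverse pattern, found in 0.512% of all loci and 1.76% of the other loci without a gene name, was seen in XLOC_019254 and XLOC_030386. XLOC_019254 had FPKM 359 in ST salinity stress against 670.1 in ST control, and 592 in SS salinity stress against 248 in SS control. XLOC_030386 had 350.3 in ST salinity stress against 591 in ST control, and 354 in SS salinity stress against 228 in SS control. In XLOC_030386 the stressed groups of both genotypes met at nearly the same level.

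**Figure D3:**
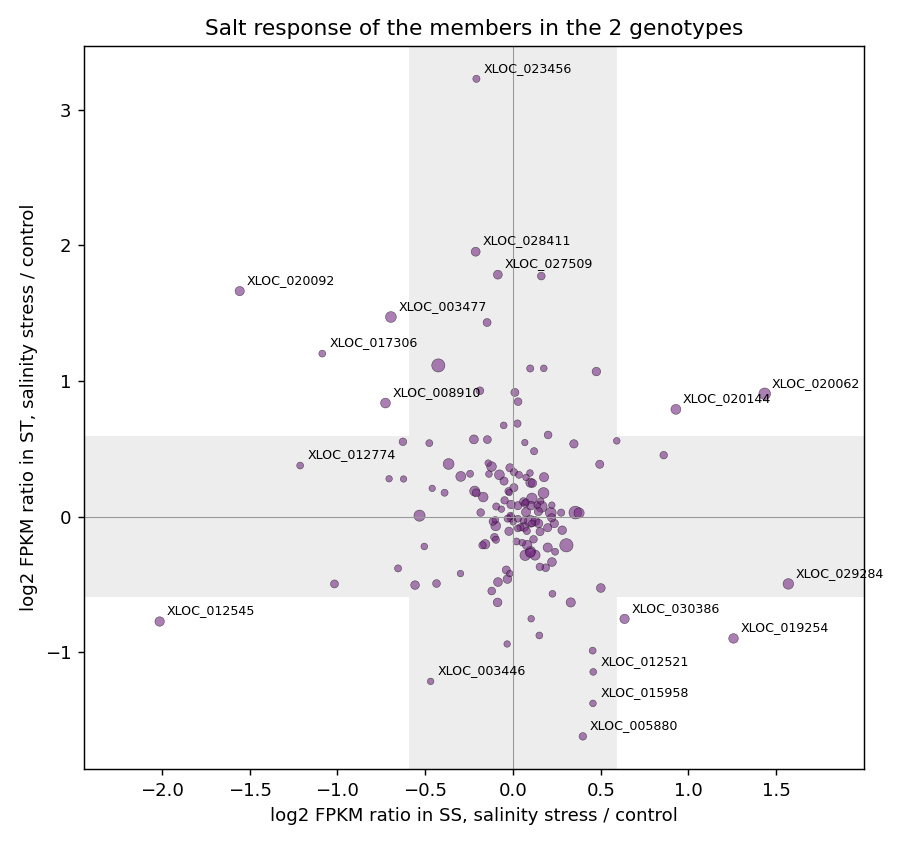
Log2 FPKM ratio of salinity stress to control in ST (vertical) against SS (horizontal) for the 149 members above 0 in every group; point area grows with highest FPKM, and grey bands mark ratios within 1.5-fold. Points in the upper left and lower right corners, such as XLOC_020092 and XLOC_019254, had ratios of opposite sign in the 2 genotypes, while XLOC_000008 cannot be drawn because it is listed at 0 in SS salinity stress.

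The genotypes were then compared under salinity stress. Reads of both genotypes were mapped on the same Kabuli genome. In this comparison and in that of the controls, a difference in RNA level and one in read mapping therefore cannot be told apart. Between the stressed groups 26 members were at least 1.5-fold higher and 16 at least 1.5-fold lower in ST, 28.0% of the members. Over all loci 17.6% were called, 11.0% as higher and 6.59% as lower. The share was 14.5% among the named loci at the members' level and 34.5% among the other loci without a gene name. The median log2 ratio over members was -0.04, against 0.05 over all loci. At a 2-fold threshold 24 members (16%) passed, against 8.37% of all loci, 7.12% of the named loci at the members' level and 19.7% of the other loci without a gene name.

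XLOC_000008 showed the widest gap, with FPKM 1582 in ST salinity stress and a listed 0 in SS salinity stress. XLOC_002752 had 226 in ST salinity stress against 44.1 in SS salinity stress (5.14-fold), XLOC_020092 had 552 against 149 (3.69-fold) and XLOC_003477 had 1503 against 486 (3.09-fold). XLOC_027509 had 438 against 151 (2.90-fold). Of these 5, XLOC_002752 was also higher than 1.5-fold in ST between the controls. On the lower side the largest difference was in XLOC_026480, with 148 in ST salinity stress against 1186 in SS salinity stress (8.02-fold lower in ST). XLOC_012521 had 40.2 against 156 (3.88-fold), XLOC_005880 had 60.1 against 220.1 (3.66-fold). XLOC_026454 had 53.2 against 184 (3.46-fold) and XLOC_029284 had 379 against 1254 (3.31-fold).

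The last comparison set the genotypes against each other without salt. Between the controls 14 members were at least 1.5-fold higher and 22 at least 1.5-fold lower in ST, 24.0% of the members. Over all loci 16.4% were called, 8.22% as higher and 8.19% as lower. The share was 10.2% among the named loci at the members' level and 33.0% among the other loci without a gene name. The median log2 ratio over members was 0.01, against -0.01 over all loci. At a 2-fold threshold 21 members (14%) passed, against 7.21% of all loci, 2.77% of the named loci at the members' level and 18.5% of the other loci without a gene name.

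XLOC_020062 was 3.68-fold higher in ST control, with FPKM 1436 against 390 in SS control. XLOC_019254 had 670.1 in ST control against 248 in SS control (2.71-fold), XLOC_030386 had 591 against 228 (2.59-fold), XLOC_027876 had 6613 against 2925 (2.26-fold) and XLOC_002752 had 154 against 68.1 (2.27-fold). On the lower side XLOC_023456 stood apart, with 6.10 in ST control against 185 in SS control (30.3-fold lower). XLOC_000008 had 169 in ST control against 1295 in SS control (7.64-fold), XLOC_026480 had 180.4 against 1130 (6.27-fold), XLOC_026454 had 46.7 against 187 (4.01-fold) and XLOC_008910 had 200.3 against 772 (3.85-fold). XLOC_026480 and XLOC_026454 were thus among the 5 lowest ratios of ST to SS in both conditions.

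The 2 genotype comparisons share no column. In both of them 7 members were at least 1.5-fold higher in ST (4.67%), against 4.09% of all loci open to both counts and 7.68% of the other loci without a gene name. In both, 6 were at least 1.5-fold lower (4%), against 3.05% of all loci and 8.42% of the other loci without a gene name. Those higher in ST were XLOC_027876, XLOC_020062, XLOC_028412, XLOC_025371, XLOC_008871, XLOC_002752 and XLOC_023430. XLOC_025371 may serve as an example of a steady difference, with FPKM 232 in ST salinity stress, 238 in ST control, 135 in SS salinity stress and 147 in SS control. The locus with the preceding number, which joins Ca_21794 and Ca_21795, had 229, 199, 129 and 143 in the same order. That locus passed 1.5-fold between the stressed groups and not between the controls. Those lower in ST were XLOC_026480, XLOC_003399, XLOC_026454, XLOC_023456, XLOC_030245 and XLOC_020045. XLOC_003399 had 102 in ST salinity stress, 78.2 in ST control, 295 in SS salinity stress and 209 in SS control. Members that passed the threshold under stress and not in control numbered 25 (16.7%), against 8.42% of all loci and 13.8% of the other loci without a gene name. Those that passed it in control and not under stress numbered 19 (12.7%), against 7.14% of all loci and 12.3% of the other loci without a gene name, and whether the conditions differed was not tested.

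The genotype difference changed sides between the conditions in 4 members (2.67%, against 1.25% of all loci and 3.86% of the other loci without a gene name). XLOC_000008, XLOC_020092 and XLOC_017306 were lower in ST control than in SS control and higher in ST salinity stress than in SS salinity stress. XLOC_019254 did the reverse. These ratios come from the same 4 values as the salt comparisons.

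**Figure D4:**
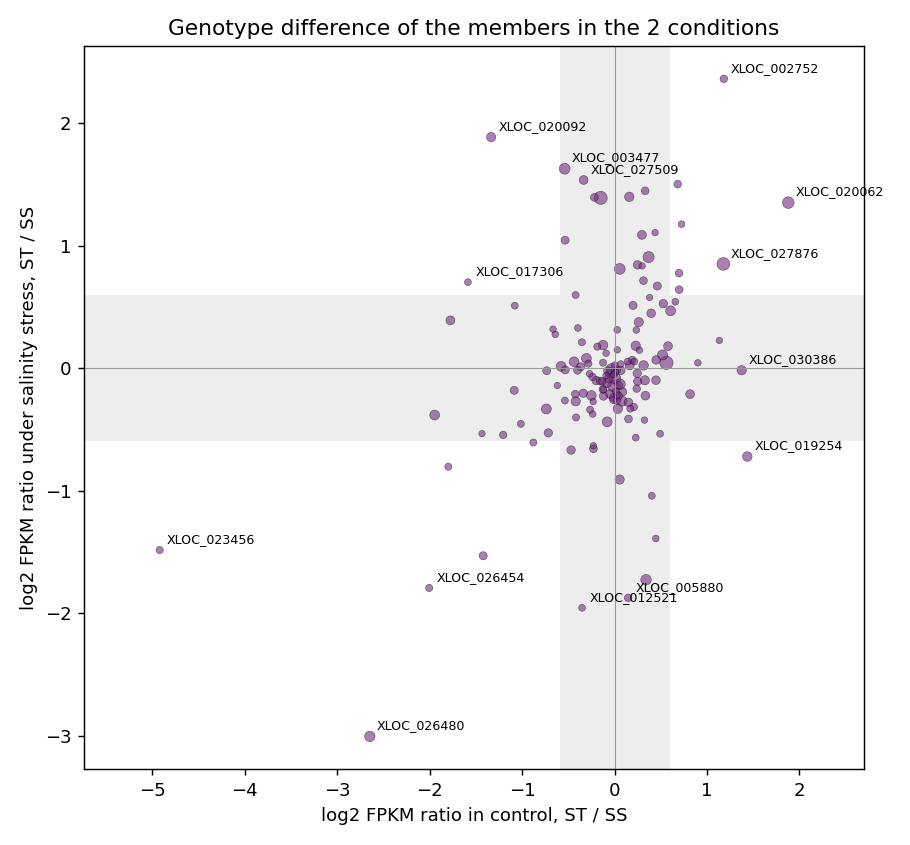
Log2 FPKM ratio of ST to SS under salinity stress (vertical) against control (horizontal) for the 149 members above 0 in every group; point area grows with highest FPKM, and grey bands mark ratios within 1.5-fold. XLOC_026480 and XLOC_023456 lie far to the lower left, XLOC_020062 and XLOC_002752 to the upper right, and XLOC_020092, XLOC_017306 and XLOC_019254 lie in corners where the sign differs between the conditions.

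Locus numbers gave the single other property of the members in the table. The loci are numbered without gaps, and loci without a gene name formed 1077 runs of consecutive numbers, of which 18 held at least 10 loci. These long runs held 1418 (50.4%) of all loci without a gene name and 78 (52.0%) of the members, which were spread over 14 of them. The other 72 members lay in shorter runs, and 39 of them stood alone between named loci. The longest run, of 218 loci from XLOC_019940 to XLOC_020157, held 13 members, including XLOC_019945, XLOC_020062 and XLOC_020130. In ST, 4 of these 13 were higher and 3 lower under salt, against 7.79% and 5.63% of all loci. So few members give no share for this run. Median highest FPKM was 244 for members in long runs and 273 for the others. Under salt, 20 of the 78 members (25.6%) in long runs and 15 of the other 72 (20.8%) passed 1.5-fold in ST. The share was 13.4% of all loci and 27.1% of the other loci without a gene name. In SS, 11 (14.1%) in long runs and 8 (11.1%) of the others passed, against 10.7% and 24.9%, respectively. In ST the long runs, with 52.0% of the members, held 10 of the 22 higher and 10 of the 13 lower members. Other loci without a gene name were not split by run, and no difference between the run classes was tested. What orders the numbers is not stated in the sources used here, so consecutive numbers are not read as neighbours on a chromosome.

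**Figure D5:**
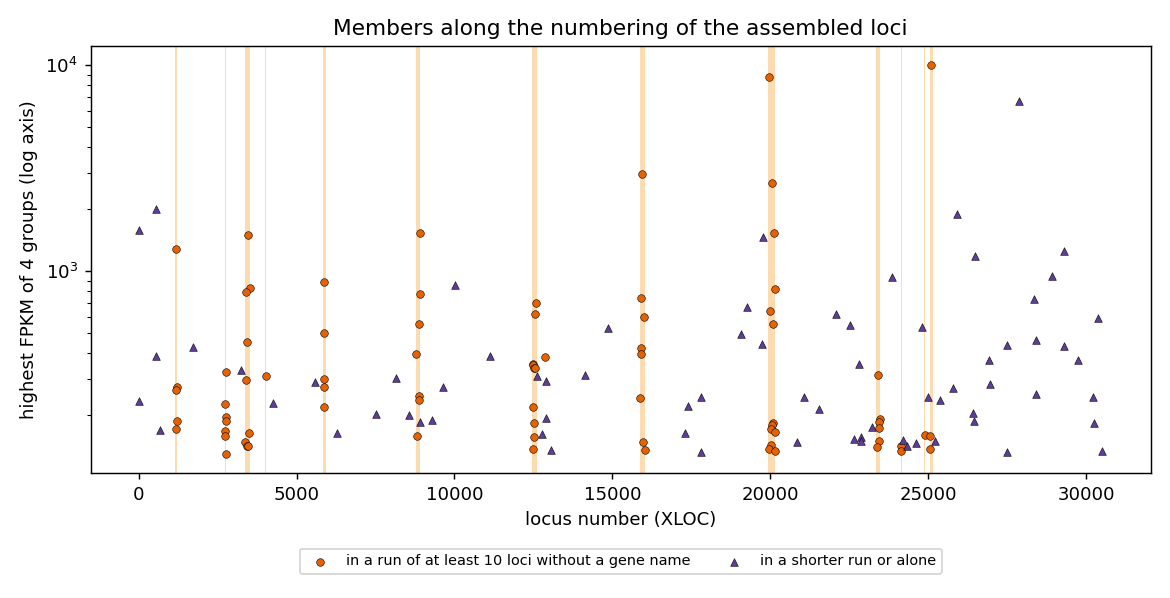
Highest FPKM of the 4 groups (log axis) of the 150 members against locus number, with circles for the 78 members in runs of at least 10 loci without a gene name and triangles for the other 72; shaded bands mark the 14 such runs that hold a member. Members of both kinds cover the range of levels.

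Consecutive members varied in how close their ratios were. There were 7 pairs of members with consecutive numbers, and in none did both members pass 1.5-fold in the same salt comparison. Under salt 23.3% of the members were called in ST and 12.7% in SS, against 13.4% and 10.7% of all loci. At such shares 7 pairs are too few to read a lack of agreement from this. XLOC_000546 and XLOC_000547 had nearly equal ratios, no more than 0.07 apart on the log2 scale in any comparison, with FPKM between 1786 and 1999.8 for the first and between 346 and 388 for the second. XLOC_028411 and XLOC_028412 went apart most, with FPKM 119 and 252 in ST control against 409 and 155 in SS control, so that the first was lower and the second higher in ST. XLOC_029284 was 2.97-fold higher in SS salinity stress than in SS control, whereas XLOC_029283, with the preceding number, had 433 against 396. The named locus with the next number, Ca_23283, was also called higher, with FPKM 10.8 in SS salinity stress against 6.40 in SS control.

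A named locus held the number before or after 60 of the members, in 99 pairs. Both loci of a pair passed 1.5-fold in the same direction in 0 of 9 pairs with a changed member for salt in ST and in 2 of 8 for salt in SS, and in 1 of 13 between the stressed groups and 1 of 11 between the controls. They passed in opposite directions in 1, 0, 1 and 1 pairs, in the same order. Over all loci 13.4%, 10.7%, 17.6% and 16.4% were called in these comparisons, in either direction. With so few pairs, neither agreement nor its lack is read from these counts. XLOC_017387 and the next locus, Ca_22054, were both higher under salt in SS, with FPKM 222 and 215 in SS salinity stress against 122 and 127 in SS control. XLOC_026454 and the next locus, Ca_21064, differed between the genotypes in opposite directions. Ca_21064 had 54.4 in ST salinity stress and 44.5 in ST control, against 10.8 in SS salinity stress and 12.8 in SS control, while XLOC_026454 had 53.2 and 46.7 in the ST groups against 184 and 187 in the SS groups. XLOC_024980 had 244 in ST salinity stress against 128 in ST control, and the locus before it, which joins Ca_12973 and Ca_12974, had 116 against 181. Whether reads of such loci could be assigned to either is not known from the table, and these 3 examples were named after their values were seen.

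At the limit of 150, the last members were XLOC_027483 with a highest FPKM of 132.8, XLOC_017808 with 132.6 and XLOC_002775 with 129.9. The next loci, outside the limit, were XLOC_026824 with 129.6, XLOC_020071 with 129.4 and XLOC_001184 with 129.0. The members just inside and the loci just outside thus differed by less than the groups within a typical member.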

How the data were processed

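The authors deposited 1 FPKM value for each locus in each group, against 2 libraries per group. Low-quality reads were removed and the rest mapped on the Kabuli chickpea genome. The submitters' processing notes name TopHat2 2.1.1, Cufflinks 2.2.1 and Cuffdiff 2.2.1. The scaling between libraries is not given in the sources used here.

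Members were the 150 loci without a gene name with the highest FPKM in any group. Plain FPKM ratios without a pseudocount were called at 1.5-fold where the larger FPKM was 1 or more. Loci named were the 10 highest members, the 5 largest rises and 5 largest falls by log2(FPKM + 1) in each comparison, members at 0 or of opposite salt response, and loci at the limit; others were named after their values were seen. Members and rules were chosen with earlier results of these data known. The planned comparison of locus width, position, distance and annotation could not be made without coordinates, and locus numbers were used instead. The reference gene table shared 0 identifiers with the file. The calls, the choice of members and the median-ratio scaling factor were tested on simulated data, and the counts of patterns, runs and neighbours were not. The planted changes lay well past the threshold with little noise, so their recovery was near certain. Python 3.11.15, pandas 2.3.3, numpy 2.4.6 and matplotlib 3.10.9 were used.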

Additional observations from a re-analysis of the deposited data

Results flagged for a closer look

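The 7 members that passed 1.5-fold under salt in opposite directions in the 2 genotypes are listed because their salt responses differ in sign, on 1 pooled value per group. This difference was not tested, and such loci were about as frequent among the other loci without a gene name (4.76%) as among the members (4.67%). The log2 ratio of salinity stress to control in ST minus that in SS was 3.22 in XLOC_020092, 2.29 in XLOC_017306, 2.17 in XLOC_003477 and 1.56 in XLOC_008910. It was -2.16 in XLOC_019254 and -1.39 in XLOC_030386. In XLOC_000008 the log2 ratio in ST was 3.22, and no ratio can be given in SS, where it was listed at 0 in salinity stress against FPKM 1295 in control. The place of XLOC_000008 among the 7 rests on that 0.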

How the results depend on the processing

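The share of changed members and of members with opposite salt responses was recomputed under 13 other settings, and 59 of 65 values stayed within 1.5 times the main value. Pseudocounts of 1 and 0.1, no filter on low values and a minimum FPKM of 5 left every share unchanged. The high FPKM of the members made this near certain, so these settings are no check of the calls. A 2-fold threshold lowered the shares to 11.3% in ST, 6% in SS, 16% between the stressed groups, 14% between the controls and 2% for opposite responses. The last was 7.89% over the 76 members with a mean FPKM of at least 200, a setting chosen after seeing the data, as was leaving out members in long runs. Among the 568 recomputed log2 ratios of the 36 named members, the largest move was 0.21. Under median-ratio or upper-quartile scaling 10 of them changed sign, in 6 loci (XLOC_002775, XLOC_015926, XLOC_025097, XLOC_025907, XLOC_026454 and XLOC_027876), each 0.04 or less in size as reported. Of the ratios past 1.5-fold 0 changed sign. This was fixed in advance, because the largest shift of a log2 ratio under scaling was -0.06. Width, overlap and distance alternatives were not run because the table has no coordinates. Leaving out libraries was not run, and no paired analysis was possible because each group has 1 pooled column. Depth is unknown, so no interval is given.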

Other observations

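Among the 52 loci left out because a genotype was listed at 0 in both conditions, 32 were at 0 in SS and 20 in ST, and 2 reached the members' lower limit. XLOC_026481 had FPKM 338 in ST salinity stress and 189 in ST control and was listed at 0 in both SS groups. The locus with the preceding number, XLOC_026480, had 148 and 180.4 in the ST groups against 1186 and 1130 in the SS groups. XLOC_008784 was listed at 0 in both ST groups and had 133 in SS salinity stress and 127 in SS control.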
